A study of Mus musculus with 16 samples.

Results

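Of the 22675 genes in the joined count tables, 10 were followed by symbol: Asb2, Dtx1, Cd1d1, Cd9, Cd36, S1pr3, Plac8, Cd5, Spn and Bhlhe41. They are known from marginal zone B cells and from B1 cells, and all 10 had counts in both tables. Their messenger RNA was measured here in cells sorted as early memory-phenotype B cells of the mouse spleen, not in sorted marginal zone or B1 cells. RNA was sequenced with Smart-seq2, a full-length method for few cells, in 16 libraries of about 1000 cells, 4 for each of 4 groups. The study set memory B cells with the zinc finger protein Zfp318 against those lacking it.

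All mice were C57BL/6, carried AID-Cre, B1-8hi and GFP, and had been immunized with NP-OVA in LPS and alum, with sampling on day 7. AID-Cre is a recombinase named for the deaminase of activated B cells, and B1-8hi is a rearranged heavy chain that binds the immunizing hapten with high affinity, so the controls carried both too. The animals' ages were not given in the sources used here. KOTP and KOTN were the tdTomato-positive and tdTomato-negative cells of mice homozygous for the reporter allele Zfp318ZSDAT. HetTP and HetTN were the tdTomato-positive and tdTomato-negative cells of mice with 1 such allele (Zfp318ZSDAT/+). Every library came from B220+, NIP-binding, CD38+ cells without CD138, GL7, FAS or surface IgD. That left out cells with surface IgD, which most follicular B cells of normal mice carry.

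Marginal zone B cells sit at the blood-filled border of the splenic follicles and answer blood-borne antigens quickly. Their formation needs the receptor Notch2: once it binds its ligand, its inner part is cut free and joins the DNA-binding protein RBPJ at target genes, Dtx1 among them. B1 cells are self-renewing B cells, best known from the body cavities, that make much of the natural antibody. Their subset B1a is defined by the surface protein CD5, and B1 cells also carry CD43, the product of Spn. Memory B cells persist after an immune response, and Zfp318 is known in B cells as the factor that lets transcripts of the heavy chain locus run on into the IgD exons.

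Library totals were between 7748787 and 15742445 counts. Values below are CPM, counts per 1000000 of a library total corrected with TMM, and errors are the SD of a group's 4 libraries. Zfp318 itself had 2.8, 2.9, 0.9 and 1.2 CPM in the KOTP libraries and 5.8, 0.5, 1.5 and 2.2 CPM in the KOTN libraries. It had 109.8, 83.9, 94.2 and 121.1 CPM in the HetTP libraries and 71.0, 153.5, 116.5 and 132.7 CPM in the HetTN libraries. The groups matched their genotype labels by this gene. B cell markers summed to at least 28994 CPM in every library.

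The genotypes differed in ways that reach the members. The homozygous libraries varied with a biological coefficient of 0.2 and the heterozygous ones with 0.845. A homozygous library lacked counts for 1.52% to 2.34% of the tested genes, and a heterozygous one for 7.02% to 13.6%. The deposited counts amounted to 0.369 to 0.419 per mapped read in the homozygous table and to 1.345 to 1.502 in the heterozygous table. Each genotype is 1 deposited table, so genotype and the making of the table cannot be told apart in a comparison between genotypes. Ighd, the IgD constant region, averaged 23.6 ± 5.71 CPM in KOTP and 29.3 ± 10.4 CPM in KOTN. It averaged 907 ± 153 CPM in HetTP and 913 ± 110 CPM in HetTN. Homozygous cells could therefore pass a gate against surface IgD that heterozygous cells of the same kind would not. Whether the gate took the same cells in both genotypes was not tested. Some T cell and macrophage transcripts differed as well. Trac, the constant chain of the T cell receptor, averaged 0.057 ± 0.114 CPM in KOTP and 0 in KOTN. It averaged 264 ± 153 CPM in HetTP and 280 ± 126 CPM in HetTN (SD, n = 4 each). Of the 10 T cell markers tested, 3 were called lower in homozygous cells and 1, Cd2, higher, in each genotype comparison. Cd4, Cd28 and Bcl11b had no count in any group. The 20 T cell markers summed to between 666 and 712 CPM in KOTP libraries and between 570 and 636 CPM in KOTN libraries. The sums were 500 to 1105 CPM in HetTP and 557 to 806 CPM in HetTN libraries. They overlapped between genotypes with Cd2 included, which mouse B cells also carry. Cd2 averaged 632 ± 21.2 CPM in KOTP and 572 ± 31.7 CPM in KOTN, against 302 ± 29.1 CPM in HetTP and 286 ± 87.4 CPM in HetTN. The overlap therefore does not show a like level of T cell transcripts in the genotypes. The 20 macrophage and monocyte markers summed to between 96.3 and 122 CPM in KOTP libraries and between 131 and 183 CPM in KOTN libraries, against 148 to 869 CPM in HetTP libraries and 556 to 1486 CPM in HetTN libraries.

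Among homozygous cells, 5 of the 10 members fell in the tdTomato-positive cells and none rose. They were Asb2, Cd36, S1pr3, Cd9 and Plac8, with levels in KOTP of between 0.417 and 0.713 of those in KOTN. Over all genes tested in this comparison, 2.37% were called (236 of 9974, edgeR quasi-likelihood test, Benjamini-Hochberg adjusted p under 0.05), 1.47% lower and 0.892% higher. Fewer cells of a type and less RNA per cell cannot be told apart in such bulk libraries.

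Asb2 encodes the part of a cullin ubiquitin ligase that binds its substrates, filamins among them. It had 72.6, 78.6, 72.0 and 79.4 CPM in the KOTP libraries. It had 174.1, 173.0, 182.9 and 202.3 CPM in the KOTN libraries. Every KOTP library was below every KOTN library, and the libraries within each group lay close together. The log2 fold change was -1.26 (SE 0.09, adjusted p = 2.31e-09), the largest fall among the members that were called.

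Cd36 encodes a scavenger receptor for fatty acids and oxidised lipids that marginal zone B cells, macrophages and platelets carry. It had 97.2, 90.2, 111.7 and 106.6 CPM in KOTP, against 151.9, 200.7, 189.1 and 187.5 CPM in KOTN. The groups did not overlap, and the log2 fold change was -0.83 (SE 0.10, adjusted p = 8.18e-06). S1pr3 encodes one of the receptors for the blood lipid sphingosine 1-phosphate that marginal zone B cells carry. It had 28.4, 23.1, 23.6 and 21.8 CPM in KOTP, against 36.8, 49.1, 43.3 and 42.2 CPM in KOTN. Its groups did not overlap either, and the log2 fold change was -0.81 (SE 0.15, adjusted p = 0.00278).

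Cd9 encodes a tetraspanin, a membrane organiser found on marginal zone B cells, B1 cells and platelets. It had 31.6, 29.1, 35.8 and 38.9 CPM in KOTP, against 49.5, 49.3, 62.1 and 49.6 CPM in KOTN. All 4 KOTP values were lower, and the log2 fold change was -0.62 (SE 0.14, adjusted p = 0.0139). The call was lost without KOTN replicate 3 (adjusted p = 0.0901) and without KOTP replicate 2 (adjusted p = 0.061), over a range of 0.00132 to 1 in its 16 alternatives. Plac8 encodes a small cysteine-rich protein of leukocytes. It had 679.4, 743.4, 745.6 and 878.0 CPM in KOTP, against 1127.3, 1084.2, 1113.6 and 991.1 CPM in KOTN. The groups did not overlap, and the log2 fold change was -0.49 (SE 0.07, adjusted p = 0.00027).

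The other 5 members also had lower fitted values in KOTP but did not pass the test. Spn, which encodes the surface sialoprotein CD43, had 14.1, 9.4, 5.7 and 13.9 CPM in KOTP, against 23.9, 19.9, 17.3 and 18.2 CPM in KOTN. Its groups did not overlap, and the log2 fold change was -0.85 (SE 0.25, adjusted p = 0.0688). Dtx1, the Notch target that encodes the ubiquitin ligase Deltex1, had 88.1, 79.4, 98.8 and 99.3 CPM in KOTP, against 110.5, 99.8, 137.9 and 118.4 CPM in KOTN. These groups were separated by less than 1 CPM, and the log2 fold change was -0.34 (SE 0.11, adjusted p = 0.115).

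Cd1d1, whose product presents lipids to natural killer T cells, had 29.7, 28.5, 36.6 and 23.3 CPM in KOTP, against 36.1, 36.2, 58.8 and 43.2 CPM in KOTN. The groups overlapped by the highest KOTP library, and the log2 fold change was -0.55 (SE 0.17, adjusted p = 0.1). Bhlhe41 encodes a transcription factor needed for B1a cells. It had 17.2, 13.4, 12.9 and 19.8 CPM in KOTP, against 22.9, 17.7, 24.9 and 24.4 CPM in KOTN (log2 fold change -0.49, SE 0.20, adjusted p = 0.285). Cd5 had 1.8, 1.3, 1.6 and 5.1 CPM in KOTP, against 5.1, 5.0, 5.2 and 6.4 CPM in KOTN (log2 fold change -1.09, SE 0.45, adjusted p = 0.285). In both genes the groups overlapped, for Cd5 through KOTP replicate 4 alone, which stood above the other KOTP libraries.

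All 10 members had an unadjusted p under 0.05, against 12% of all tested genes. All 10 fitted differences were below 0, where 48.7% of all tested genes were, and their median log2 fold change was -0.72 against 0.01 over all tested genes. The groups did not overlap, with KOTP lower, for 7 of 10 members, against 4.39% of all tested genes. These calls rest on the spread of the homozygous libraries alone. With all 16 libraries sharing 1 estimate of the spread, the fold changes were nearly the same (-1.27 for Asb2), no member was called (adjusted p = 1 for each of the 5), and 2 genes were called in all.

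Some macrophage transcripts moved with this comparison. Of the 13 macrophage and monocyte markers tested, Cd68 and Hmox1 also fell in KOTP (log2 fold changes -0.99 and -1.55, adjusted p = 0.00076 and 0.0437). None was called higher, and the median log2 fold change was -0.64. Not all levels ran this way. Lyz2 averaged 11.2 ± 5.5 CPM in KOTP and 6.74 ± 3.68 CPM in KOTN, and Adgre1 39.5 ± 10.8 and 42.5 ± 6.15 CPM. The summed levels given above did not overlap, and Cd68 alone averaged 23.6 ± 5.25 CPM in KOTP and 47.6 ± 5.18 CPM in KOTN. The platelet and megakaryocyte markers, of which none was tested, summed to between 2.62 and 3.54 CPM in KOTP and between 2.5 and 5.3 CPM in KOTN. The 20 T cell markers summed to between 666 and 712 CPM in KOTP and between 570 and 636 CPM in KOTN, mostly through Cd2, which mouse B cells also carry (632 ± 21.2 CPM in KOTP and 572 ± 31.7 CPM in KOTN). Of these 20 genes, 10 had no count in KOTP and 12 in KOTN, against 3 in HetTP and 4 in HetTN, and Lck averaged 44.3 ± 5.19 CPM in KOTP and 32.2 ± 4.18 CPM in KOTN. In KOTP against KOTN none of the 4 T cell markers tested was called, with 2 at an unadjusted p under 0.05. The part of these cells in the difference of Cd36 or of the other members was not tested.

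**Figure D1:**
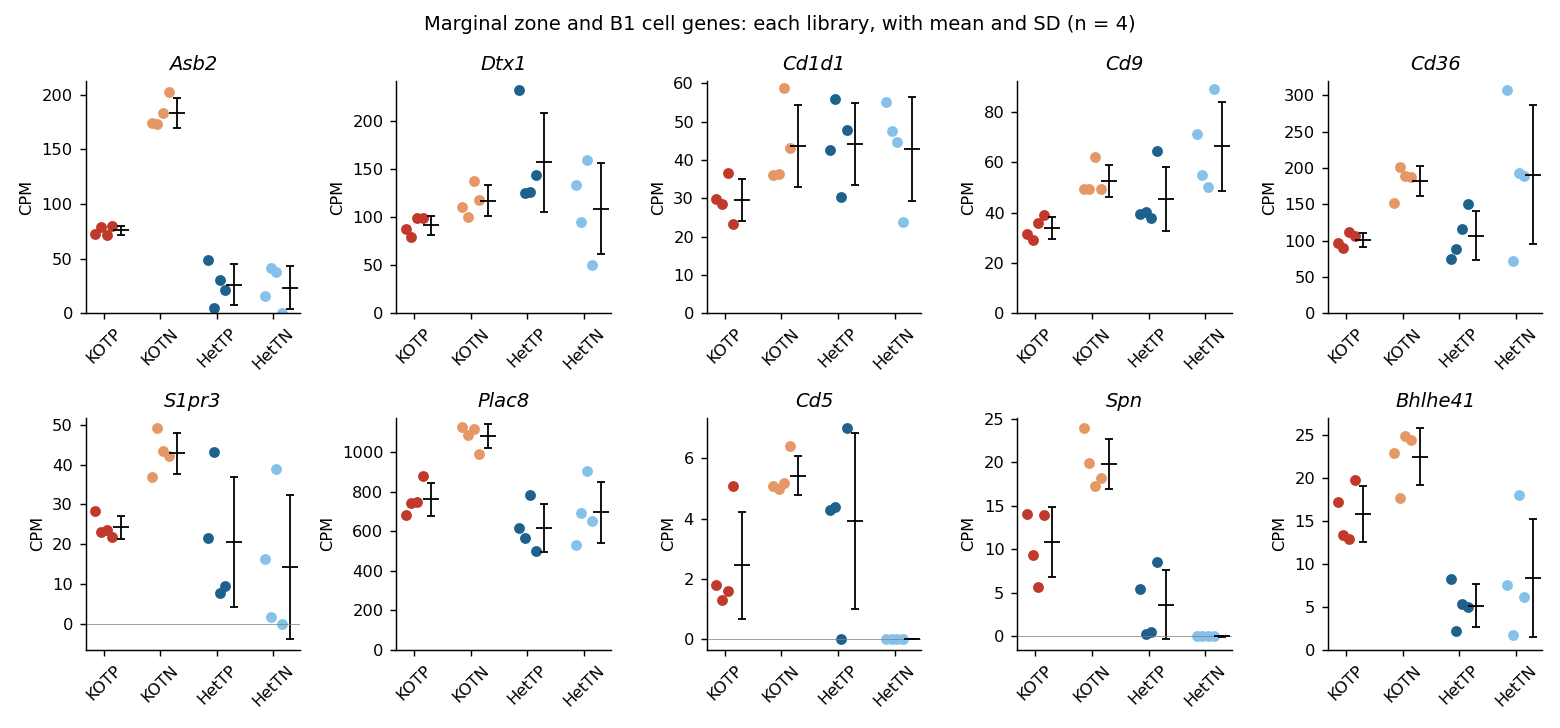
Each of the 10 genes in each library (points) on a CPM axis, with mean and SD (n = 4) beside the points, by group. Asb2 separates the homozygous groups from each other and from both heterozygous groups, and Cd5 and Spn lie at or near 0 in HetTN.

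The promoters of the 5 genes that fell together in KOTP are shown, since they are the stretches next to the start that could share a sequence. They are RefSeq promoters on GRCm38.p6, 250 bases before to 50 bases after a start of the gene, 5′ to 3′ on the gene's strand. Capitals mark matches on either strand to the core that RBPJ binds (TGGGAA, or TTCCCA in reverse) or to the E-box that Bhlhe41 and related factors bind (CACGTG). Asb2 is at chr12:103355952-103356251 (minus strand), Cd36 at chr5:17835847-17836146 (minus), Cd9 at chr6:125494711-125495010 (minus), S1pr3 at chr13:51408368-51408667 (plus) and Plac8 at chr5:100572156-100572455 (minus). Asb2 and Plac8 each have another RefSeq start, and the upstream one is shown. The Cd36 window lies inside the span GENCODE gives the gene (chr5:17781690-17888801, minus), downstream of its 5′ end. No Cd36 window at that end was searched.
Asb2: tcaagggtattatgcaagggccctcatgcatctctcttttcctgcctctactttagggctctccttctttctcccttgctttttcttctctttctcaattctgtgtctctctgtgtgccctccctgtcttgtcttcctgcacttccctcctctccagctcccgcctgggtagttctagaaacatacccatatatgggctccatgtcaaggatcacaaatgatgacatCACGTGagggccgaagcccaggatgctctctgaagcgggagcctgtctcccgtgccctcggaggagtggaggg
Cd36: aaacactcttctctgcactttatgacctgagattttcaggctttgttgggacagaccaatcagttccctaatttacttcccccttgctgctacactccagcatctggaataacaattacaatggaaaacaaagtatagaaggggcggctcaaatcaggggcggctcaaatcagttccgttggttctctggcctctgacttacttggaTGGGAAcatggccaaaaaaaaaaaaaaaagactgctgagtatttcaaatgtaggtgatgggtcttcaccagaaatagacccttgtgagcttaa
Cd9: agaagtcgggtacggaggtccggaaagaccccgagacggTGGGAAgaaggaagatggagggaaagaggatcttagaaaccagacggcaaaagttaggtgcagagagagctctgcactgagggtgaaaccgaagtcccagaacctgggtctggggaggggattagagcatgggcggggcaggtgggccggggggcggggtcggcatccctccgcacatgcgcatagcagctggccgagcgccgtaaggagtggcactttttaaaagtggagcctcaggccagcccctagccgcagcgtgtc
S1pr3: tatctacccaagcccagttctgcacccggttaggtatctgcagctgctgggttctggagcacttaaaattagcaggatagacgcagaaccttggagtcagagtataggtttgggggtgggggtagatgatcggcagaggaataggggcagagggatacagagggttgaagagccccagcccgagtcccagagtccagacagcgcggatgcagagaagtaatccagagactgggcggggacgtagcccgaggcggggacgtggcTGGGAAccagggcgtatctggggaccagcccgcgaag
Plac8: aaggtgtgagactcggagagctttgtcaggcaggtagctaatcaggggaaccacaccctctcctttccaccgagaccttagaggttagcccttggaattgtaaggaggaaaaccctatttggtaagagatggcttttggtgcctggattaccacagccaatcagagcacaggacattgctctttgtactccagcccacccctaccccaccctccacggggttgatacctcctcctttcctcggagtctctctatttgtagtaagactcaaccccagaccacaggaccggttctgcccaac
The RBPJ core stood once in the windows of Cd36, Cd9 and S1pr3, and the E-box once in that of Asb2. Neither was in the window of Plac8 shown, whereas the window of its other start (chr5:100563047-100563346, minus) held the RBPJ core. The window of the other Asb2 start held neither. The motifs do not overlap each other. Of all 32851 RefSeq promoters of this length, 25.6% held the RBPJ core and 7.15% held the E-box. Of the members that did not pass the test, Cd5 held the RBPJ core and Bhlhe41 the E-box, Dtx1 and Spn held neither, and no sequence of Cd1d1 was printed or searched. A match is a description of the letters only.

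In heterozygous cells the same sort gave no member that passed the test. No gene was called there (0% of 9703 tested by edgeR's quasi-likelihood test, with 487 genes, 5.02%, at an unadjusted p under 0.05 and 38 called by DESeq2), so the members' count of 0 stands against a background of 0. Of the 8 members tested, 1 had an unadjusted p under 0.05, and DESeq2 called none.

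That gene was Cd36. It had 74.4, 87.8, 116.0 and 149.9 CPM in HetTP, against 308.0, 72.4, 193.2 and 188.8 CPM in HetTN. The groups overlapped because HetTN replicate 2 was the lowest of all 8 libraries. The log2 fold change was -0.83 (SE 0.37, adjusted p = 0.989), beside -0.83 in homozygous cells. Cd9 had 39.5, 40.1, 37.9 and 64.4 CPM in HetTP, against 71.4, 55.0, 50.2 and 89.4 CPM in HetTN (log2 fold change -0.55, SE 0.33, adjusted p = 1). HetTP replicate 4 alone reached into the HetTN range.

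Asb2 had 48.8, 4.7, 30.2 and 21.1 CPM in HetTP, against 15.3, 40.9, 38.0 and 0.0 CPM in HetTN. S1pr3 had 21.5, 43.2, 7.8 and 9.5 CPM in HetTP, against 16.4, 1.6, 39.0 and 0.0 CPM in HetTN. For both genes the libraries of a group ranged widely, and HetTN replicate 4 had no count of either. The log2 fold changes were 0.16 for Asb2 (SE 1.10) and 0.53 for S1pr3 (SE 1.24), and each changed sign when 1 library was left out. Plac8 had 614.5, 565.0, 784.7 and 497.8 CPM in HetTP, against 529.0, 692.6, 903.3 and 651.0 CPM in HetTN, with overlapping groups (log2 fold change -0.17, SE 0.20, adjusted p = 1).

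Dtx1 had 232.7, 125.7, 126.2 and 143.9 CPM in HetTP, against 133.2, 95.2, 159.1 and 49.9 CPM in HetTN (log2 fold change 0.52, SE 0.34, adjusted p = 1). Cd1d1 had 42.7, 55.8, 30.2 and 47.9 CPM in HetTP, against 55.1, 47.6, 44.7 and 23.7 CPM in HetTN (log2 fold change 0.05, SE 0.37, adjusted p = 1). Bhlhe41 had 8.2, 2.2, 5.3 and 5.0 CPM in HetTP, against 7.5, 1.7, 18.0 and 6.2 CPM in HetTN (log2 fold change -0.69, SE 1.18, adjusted p = 1). The groups overlapped in all 3 of these genes, and Bhlhe41 was highest in HetTN replicate 3.

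Cd5 and Spn, the B1 surface markers, had too few counts in the heterozygous libraries to be tested there. Cd5 had 4.3, 4.4, 0.0 and 7.0 CPM in HetTP and no count in any HetTN library. Against a floor of 3 counts over the group, the 215 counts of HetTP amount to a level at least 58.7-fold higher. Spn had 5.4, 0.3, 0.5 and 8.5 CPM in HetTP and 0.1, 0.0, 0.0 and 0.0 CPM in HetTN. Its 201 counts in HetTP and 1 count in HetTN give a ratio of 165, with a 95% counting interval from 29.2 to 6531 that covers counting error only. HetTP replicates 1 and 4 held most of the Spn counts, so the libraries of that group differed among themselves. The fit of all 16 libraries, which shares the spread with the homozygous libraries, called both genes higher in HetTP. Cd5 and Spn are also made by T cells, whose part in these values was not tested. The T cell markers summed to between 500 and 1105 CPM in HetTP libraries and between 557 and 806 CPM in HetTN libraries. These sums include Cd2, at 302 ± 29.1 CPM in HetTP and 286 ± 87.4 CPM in HetTN.

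Whether the tdTomato difference itself changed with genotype was tested as the KO difference minus the Het difference. No member was called, against 0.122% of all genes (13 of 10687), and 3 members had an unadjusted p under 0.05, against 9.28% of all genes. Spn ran in opposite directions, lower in KOTP than in KOTN and higher in HetTP than in HetTN, with a fitted difference of -7.62 on the log2 scale (SE 1.53, adjusted p = 0.071). Cd5 ran likewise, with a fitted difference of -9.56 (SE 2.18, adjusted p = 0.136), and both values depend on the prior count given to the empty HetTN libraries. Dtx1 was the third, with a difference of -0.87 (SE 0.39, adjusted p = 0.477). DESeq2 called Spn and Cd5 (adjusted p = 0.000148 and 0.000686). Over the alternatives the adjusted p lay between 0.000148 and 0.497 for Spn and between 0.000686 and 0.494 for Cd5. For Asb2 the difference was -1.43 (SE 1.14, adjusted p = 0.838) and for S1pr3 -1.34 (SE 1.28, adjusted p = 0.886), so the fall in homozygous cells was not shown to be particular to that genotype.

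**Figure D2:**
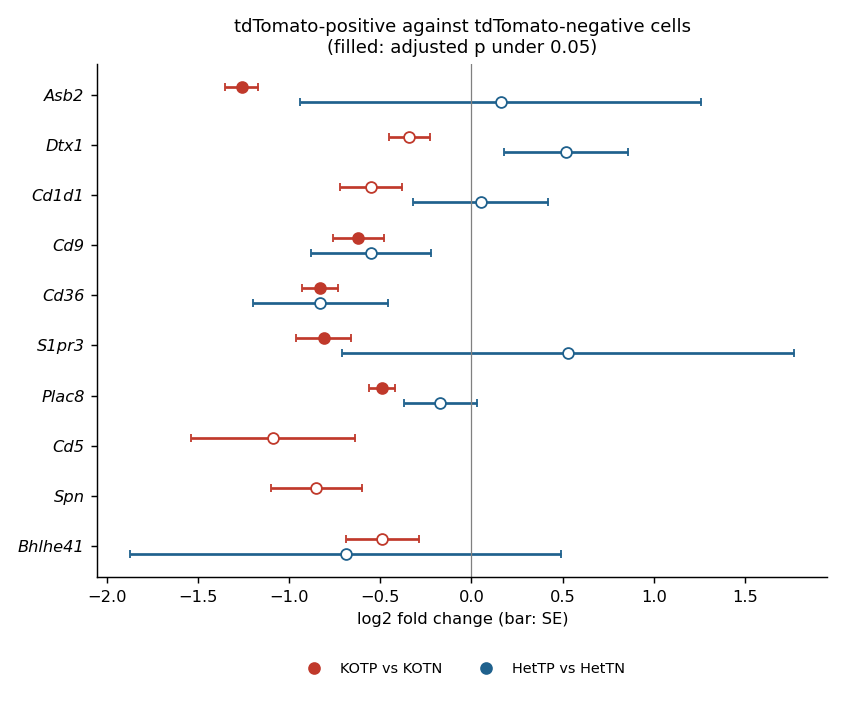
Log2 fold change of tdTomato-positive over tdTomato-negative cells for each gene, with SE, in homozygous (KOTP vs KOTN) and heterozygous (HetTP vs HetTN) mice. All 10 homozygous values lie below 0 and 5 pass the test (filled). The heterozygous bars are wider, none passes, and Cd5 and Spn were not tested there.

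Among tdTomato-negative cells, 4 members rose in homozygous mice and none fell: Spn, Cd5, Asb2 and Plac8. Of all 10687 genes tested, 10.5% were called, 5.61% higher (600 genes) and 4.88% lower. An unadjusted p under 0.05 was found for 5 of 10 members and for 23.5% of all genes. The members' median log2 fold change was 1.03, also with Cd5 and Spn set at their bound and count ratio, against 0.00 over all genes. The groups did not overlap for these 4 genes, where 12.5% of all genes were higher without overlap.

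Spn had 17.3 to 23.9 CPM in KOTN libraries, against at most 0.1 CPM in HetTN libraries. Its 647 counts in KOTN and 1 count in HetTN give a ratio of 920, with a 95% counting interval from 165 to 36397, and edgeR's adjusted p was 0.000262. Cd5 had 5.0 to 6.4 CPM in KOTN libraries and no count in HetTN. Its 179 counts amount to a level at least 84.9-fold higher against the floor of 3 counts over the group (adjusted p = 0.00705). Cd5 stayed the lowest member in KOTN, so its call rests on few counts, and limma voom did not make it (adjusted p = 0.081, range over the 15 alternatives 2.69e-06 to 0.081). Both genes thus had counts in every homozygous library and almost none in HetTN.

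Asb2 averaged 183 ± 13.6 CPM in KOTN and 23.5 ± 19.4 CPM in HetTN (SD, n = 4 each). The log2 fold change was 2.96 (SE 0.86, adjusted p = 0.0386), and every KOTN library was above every HetTN library. The call was lost in 8 of 16 alternatives (adjusted p over all 16 between 0.00378 and 0.0911). Among these were leaving out any 1 of the KOTN libraries (0.0749 to 0.0893) or HetTN replicate 1 (0.0698), no filter (0.0904) and the fit of the 8 libraries compared (0.0911). The fold change itself stayed between 2.54 and 3.35 over the 8 libraries left out in turn. Plac8 averaged 1079 ± 61.3 CPM in KOTN and 694 ± 156 CPM in HetTN (log2 fold change 0.64, SE 0.16, adjusted p = 0.0145), and no alternative ended its call. Markers of other cells ran lower in KOTN here: 3 of 10 T cell, 8 of 15 macrophage and 3 of 9 plasma cell markers tested fell, and 1 T cell marker, Cd2, rose. The plasma cell markers summed to between 229 and 343 CPM in KOTN libraries and between 462 and 1060 CPM in HetTN libraries. The part of these cells in the members' values was not tested. Of the 11 B cell markers tested, 6 rose in KOTN and 2 fell, against 5.61% of all genes called higher and 4.88% lower. In KOTP against HetTP 7 rose and 2 fell, against 5.06% and 5.22%. Cd38, a marker of the gate, averaged 403 ± 51.9 CPM in KOTN and 115 ± 39.9 CPM in HetTN. Scaling by the authors' own mapped-read divisor would put all of these rises below 0.

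The other 6 members did not pass the test between tdTomato-negative cells. S1pr3 averaged 42.8 ± 5.06 CPM in KOTN and 14.2 ± 18.1 CPM in HetTN, where HetTN replicate 3 reached 39.0 CPM (log2 fold change 1.58, SE 0.92, adjusted p = 0.336). Bhlhe41 averaged 22.5 ± 3.32 CPM in KOTN and 8.35 ± 6.86 CPM in HetTN (log2 fold change 1.42, SE 0.58, adjusted p = 0.134). Without HetTN replicate 3, which overlapped the KOTN libraries at 18.0 CPM, Bhlhe41 was called (log2 fold change 2.13, adjusted p = 0.0261, range over the 16 alternatives 0.0261 to 0.26). Cd36, Cd9, Cd1d1 and Dtx1 differed little between these groups, with log2 fold changes of -0.06, -0.34, 0.03 and 0.09 (SE 0.30, 0.24, 0.29 and 0.27). The signs of Cd36, Cd1d1 and Dtx1 turned under 1 or more alternatives.

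Among tdTomato-positive cells no member passed the test between genotypes, although 10.3% of all genes did (1099 of 10687), 5.06% higher and 5.22% lower. The unadjusted p was under 0.05 for 2 of 10 members, against 21.3% of all genes, and the median log2 fold change was 0.08 against -0.03. DESeq2 and limma voom each called 2 members. Both tools also called more of the 10687 genes than the 1099 of edgeR, so their background was above 10.3%.

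Dtx1 was lower in all KOTP libraries, at 91.4 ± 9.54 CPM, against 157 ± 51.1 CPM in HetTP (log2 fold change -0.78, SE 0.27, adjusted p = 0.0824). DESeq2, voom and the fit of the 8 libraries compared called it (adjusted p = 0.0322, 0.0246 and 0.0365, range over the 16 alternatives 0.0246 to 0.267). Bhlhe41 was higher in all KOTP libraries, at 15.8 ± 3.26 CPM, against 5.17 ± 2.45 CPM in HetTP (log2 fold change 1.61, SE 0.59, adjusted p = 0.0949). DESeq2 called it too (adjusted p = 0.04, range 0.04 to 0.225). Asb2 was likewise higher without overlap, at 75.7 ± 3.87 CPM in KOTP and 26.2 ± 18.4 CPM in HetTP (log2 fold change 1.53, SE 0.82, adjusted p = 0.319), and voom called it (adjusted p = 0.02). These 3 genes were the members whose groups did not overlap here, against 11.4% of all genes without overlap and higher in KOTP and 8.71% without overlap and lower.

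The remaining members overlapped between KOTP and HetTP. Their log2 fold changes were 1.56 for Spn (SE 0.89), 0.31 for Plac8 (SE 0.16), 0.24 for S1pr3 (SE 0.90), -0.08 for Cd36 (SE 0.30), -0.43 for Cd9 (SE 0.24), -0.58 for Cd1d1 (SE 0.29) and -0.68 for Cd5 (SE 1.26). The adjusted p was 0.263 or more for each of these 7 genes. These genotype values hold for a scaling in which the median gene hardly differs. Scaling by the authors' own mapped-read divisor would move every log2 fold change by -2.15 between tdTomato-positive and by -1.88 between tdTomato-negative cells. With it, all 10 members would be lower in KOTP than in HetTP, Asb2, Spn and Cd5 would stay higher in KOTN than in HetTN, and the other 7 members would be lower in KOTN.

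**Figure D3:**
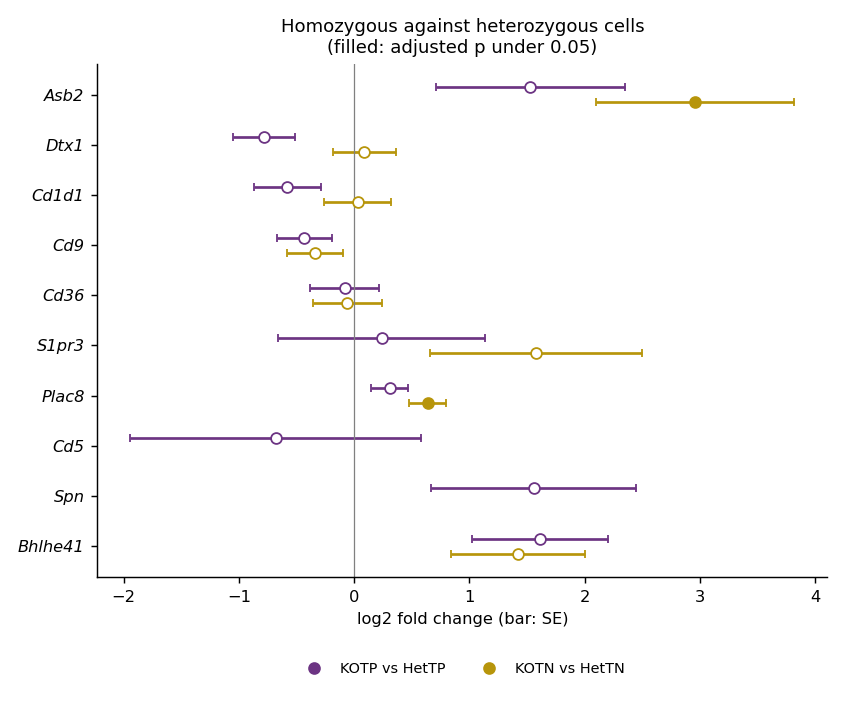
Log2 fold change of homozygous over heterozygous cells for each gene, with SE, for tdTomato-positive (KOTP vs HetTP) and tdTomato-negative cells (KOTN vs HetTN). Asb2 and Plac8 pass the test in tdTomato-negative cells (filled). Cd5 and Spn, also called there, are not drawn for KOTN vs HetTN because HetTN had 0 and 1 count.

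The members' spread followed the genotype. The median coefficient of variation over the members was 12.4% in KOTP and 11.9% in KOTN, against 39.9% in HetTP and 50.5% in HetTN. Over all tested genes it was 17.7% in KOTP and 17.7% in KOTN, against 45% in HetTP and 52.8% in HetTN. Of the 40 member values in each group, none was 0 in KOTP or KOTN, 1 was 0 in HetTP and 9 were 0 in HetTN.

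Between genes, levels were compared as CPM per kilobase of coding sequence. Plac8, whose coding sequence has 336 bases, was far above the other members in every group, at 2267 ± 248 in KOTP, 3211 ± 183 in KOTN, 1832 ± 365 in HetTP and 2065 ± 464 in HetTN (SD, n = 4 each). Cd5 was the lowest in every group, at 1.65 ± 1.19 in KOTP, 3.66 ± 0.431 in KOTN, 2.65 ± 1.97 in HetTP and 0 in HetTN. Between these ends the order shifted mostly through Asb2. It ranked 5 of 10 in KOTP, 3 in KOTN, 7 in HetTP and 7 in HetTN.

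In KOTP the order after Plac8 was Cd36 (71.6 ± 6.79), Cd9 (49.9 ± 6.43), Dtx1 (48.6 ± 5.07), Asb2 (38.5 ± 1.97), Cd1d1 (29.3 ± 5.43), S1pr3 (21.4 ± 2.54), Bhlhe41 (12.4 ± 2.55), Spn (9.11 ± 3.4) and Cd5. The neighbours whose libraries overlapped were Cd9 with Dtx1, Cd1d1 with S1pr3, and Bhlhe41 with Spn. In KOTN the order after Plac8 was Cd36 (129 ± 14.9), Asb2 (93.2 ± 6.91), Cd9 (77.6 ± 9.28), Dtx1 (62 ± 8.55), Cd1d1 (43.2 ± 10.6), S1pr3 (37.8 ± 4.46), Bhlhe41 (17.6 ± 2.6), Spn (16.7 ± 2.45) and Cd5. There Cd36 stood clear of Asb2, while the neighbours between Asb2 and S1pr3 overlapped pair by pair, as did Bhlhe41 and Spn.

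In HetTP the order after Plac8 was Dtx1 (83.5 ± 27.2), Cd36 (75.6 ± 23.6), Cd9 (67.1 ± 18.7), Cd1d1 (43.8 ± 10.6), S1pr3 (18.1 ± 14.4), Asb2 (13.4 ± 9.37), Bhlhe41 (4.05 ± 1.92), Spn (3.09 ± 3.37) and Cd5. In HetTN it was Cd36 (135 ± 67.9), Cd9 (98.1 ± 26.2), Dtx1 (58.1 ± 25.3), Cd1d1 (42.4 ± 13.4), S1pr3 (12.6 ± 16), Asb2 (12 ± 9.89), Bhlhe41 (6.54 ± 5.37), Spn (0.0235 ± 0.047) and Cd5. Apart from Plac8, the neighbours in these heterozygous orders overlapped, except Cd9 with Cd1d1 in HetTP and Bhlhe41 with Spn in HetTN.

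The Notch pathway, which acts upstream of Dtx1, gave at most 1 call in each comparison at the settings used throughout. Its receptors, processing enzymes, cofactors and other targets made a list of 30 genes. In KOTP against KOTN none of 24 tested was called, with 1 at an unadjusted p under 0.05, a median log2 fold change of 0.04 and 0.01 over all genes. DESeq2 called none, while 1 was called lower with no filter, and 1 was called without KOTP replicate 1. In KOTP against HetTP 1 of 25 rose, Psenen, a subunit of the gamma-secretase that frees the inner part of Notch (log2 fold change 0.57, SE 0.18, adjusted p = 0.0479). In KOTN against HetTN 1 of 25 rose, Rbpj (log2 fold change 1.81, SE 0.55, adjusted p = 0.0428). Rbpj averaged 12.6 ± 3.05 CPM in KOTN and 3.57 ± 1.2 CPM in HetTN. The call of Psenen was lost in 10 of 16 alternatives and that of Rbpj in 9 of 16, with adjusted p up to 0.111 and 0.208, and leaving out any 1 compared library ended the call of Psenen. Rbpj lost its call without any 1 KOTN library or without HetTN replicate 1.

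The other marginal zone genes, 20 in the list, moved in both directions. In KOTP against KOTN 4 of 19 tested fell and 2 rose, against 1.47% of all genes called lower and 0.892% higher (median log2 fold change -0.27). Those that fell were Cd81, a tetraspanin of the B cell coreceptor, Id2, an inhibitor of E proteins, Fcgr2b, the inhibitory IgG receptor, and Fcrl5, an Fc receptor-like protein of marginal zone B cells. Their log2 fold changes were -0.59, -0.84, -0.51 and -0.45 (adjusted p = 8.6e-06, 5.6e-05, 0.000178 and 0.00175). Id3, the related inhibitor of E proteins, and Ptk2b, a kinase that marginal zone B cells need, rose by 0.50 and 0.49 on the log2 scale (adjusted p = 0.00027 and 0.0116). The fit of all 16 libraries called none of these 6 genes (adjusted p between 0.147 and 1), and the call of Ptk2b was also lost without KOTN replicate 2 or 3 or KOTP replicate 2. These 6 genes, like the follicular and B1 genes named for KOTP against KOTN in the next paragraphs, were named after their values were seen.

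Between genotypes, with TMM scaling, more of this list rose than fell. In KOTN against HetTN 8 of 19 rose and 2 fell, against 10.5% of all genes called, with a median log2 fold change of 0.48. Cd81 averaged 842 ± 56.5 CPM in KOTN and 408 ± 49.7 CPM in HetTN (log2 fold change 1.04, adjusted p = 1.88e-05). Fcrl5 averaged 205 ± 8.84 CPM in KOTN and 61.9 ± 10.5 CPM in HetTN (log2 fold change 1.73, adjusted p = 8.37e-05). Id2 averaged 114 ± 3.15 CPM in KOTN and 20.3 ± 6.99 CPM in HetTN (log2 fold change 2.49, adjusted p = 0.000146). In KOTP against HetTP 4 of 19 rose and 2 fell, against 10.3% of all genes called. Cd81, Mzb1, a folding factor of the endoplasmic reticulum, and Fcgr2b led (log2 fold changes 0.81, 0.82 and 1.40, adjusted p = 0.000172, 0.000645 and 0.00189). With upper quartile scaling 7 rose in the tdTomato-positive comparison. In KOTN against HetTN, 6 were called without KOTN replicate 2. Scaling by the authors' divisor would put below 0 the fold changes of all 4 genes that rose in KOTP and of 5 of the 8 that rose in KOTN.

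The other B1 cell genes made a list of 24. In KOTP against KOTN, where 2.37% of all genes were called, 1 of 17 fell, Zbtb32, a zinc finger repressor (log2 fold change -1.05, SE 0.11, adjusted p = 5.61e-07). Zbtb32 averaged 63.8 ± 7.04 CPM in KOTP and 134 ± 12.2 CPM in KOTN, and the fit of all 16 libraries did not call it (adjusted p = 1). In KOTN against HetTN, where 10.5% of all genes were called, 2 of 18 rose, Fcrla and Zbtb32, and 2 fell, Nfatc1 and Il5ra. Fcrla, an intracellular Fc receptor-like protein, rose by 0.76 on the log2 scale (adjusted p = 0.000959), and Nfatc1, a calcium-driven factor that B1a cells need, fell by 1.97 (adjusted p = 2.71e-05). The calls of Zbtb32 (1.88, adjusted p = 0.0381) and Il5ra (-2.13, adjusted p = 0.0417) were lost in 8 and 10 of 16 alternatives. Zbtb32 lost it without any 1 KOTN library or without HetTN replicate 2 or 3, and Il5ra without any 1 KOTN library or without HetTN replicate 1 or 3.

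In KOTP against HetTP, where 10.3% of all genes were called, 1 of 18 rose, Fcrla (log2 fold change 1.00, adjusted p = 5.96e-05), and 2 fell. Nfatc1 averaged 70.2 ± 24.5 CPM in KOTP and 337 ± 51.9 CPM in HetTP (log2 fold change -2.26, adjusted p = 6.76e-06). Il5ra, the receptor chain for the B1 growth factor interleukin 5, averaged 2.07 ± 0.211 CPM in KOTP and 18.2 ± 9.29 CPM in HetTP (log2 fold change -3.13, adjusted p = 0.00467). Nfatc1 and Il5ra were thus lower in homozygous cells in both comparisons. Spn and Cd5 were called higher between tdTomato-negative cells and were not called between tdTomato-positive cells, and the test of that difference, given above, was not passed.

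Follicular B cell genes rose in part in tdTomato-positive homozygous cells. In KOTP against KOTN 7 of 14 rose and none fell, against 0.892% of all genes called higher, with a median log2 fold change of 0.36. Fcmr, the receptor for IgM, averaged 1612 ± 70 CPM in KOTP and 1016 ± 22.2 CPM in KOTN (log2 fold change 0.68, adjusted p = 1.28e-07). Cd55, a complement regulator, averaged 293 ± 31.9 CPM in KOTP and 177 ± 4.25 CPM in KOTN (log2 fold change 0.74, adjusted p = 3.3e-06). Fcer2a, which encodes the follicular marker CD23, averaged 432 ± 68.6 CPM in KOTP and 275 ± 33.4 CPM in KOTN (log2 fold change 0.66, adjusted p = 0.000973). Btla, Foxo1 and Bach2 were among the rest. The count was 4 without KOTN replicate 2, KOTN replicate 4 or KOTP replicate 2, and 1 in the fit of all 16 libraries.

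Between genotypes more genes of the same list were called lower than higher. In KOTN against HetTN 6 of 14 fell and 2 rose, against 4.88% of all genes called lower and 5.61% higher. The leading genes were Ighd, the IgD constant region, Fcmr and Klf2, a regulator of homing (log2 fold changes -4.97, -1.27 and -1.54, adjusted p = 5.81e-10, 6.28e-07 and 8.33e-05). Ighd transcripts need Zfp318, as given above, and surface IgD was part of the gate. Its fall, counted in both genotype comparisons, is thus no measure of follicular cells. In KOTP against HetTP 4 of 14 fell and 1 rose, against 5.22% of all genes called lower and 5.06% higher. Ighd and Klf2 fell (log2 fold changes -5.27 and -1.42, adjusted p = 2.67e-10 and 0.000131). In HetTP against HetTN none of these 4 lists had a gene called by edgeR, with 3 other marginal zone genes, 1 Notch gene, no B1 gene and 1 follicular gene at an unadjusted p under 0.05, and DESeq2 called 1 marginal zone gene. The tdTomato difference of Fcmr was larger in homozygous cells by 0.86 on the log2 scale (adjusted p = 0.0368). That call was lost in 9 of 23 alternatives, among them the removal of any 1 KOTP or KOTN library.

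**Figure D4:**
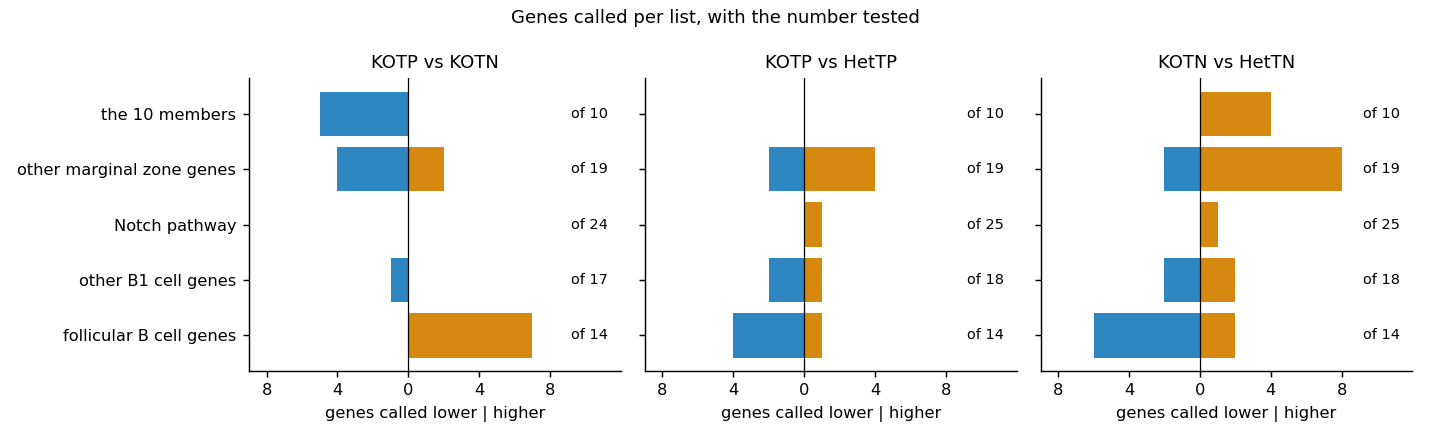
Number of genes called lower (left of 0) and higher (right of 0) in each list for 3 comparisons, with the number tested at the right. In KOTP vs KOTN the 10 members have 5 calls lower and none higher, and the follicular list has 7 higher and none lower.

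The genes whose course over the 16 libraries was most like a member's were found by the root mean square difference of log2 CPM, with 1 CPM added and each gene centred on its own mean, among 10534 genes. Asb2 was nearest to Adgre1, which encodes the surface protein F4/80 (0.79), then Alox5ap (0.93) and Slc4a8 (0.98), where the median gene was at 2.00. Adgre1 averaged 39.5 ± 10.8 CPM in KOTP and 42.5 ± 6.15 CPM in KOTN, against 9.85 ± 9.52 CPM in HetTP and 12 ± 8.73 CPM in HetTN, so it followed Asb2 between genotypes and not between KOTP and KOTN. Spn was nearest to Cmya5 (0.74), Stom (0.75) and Dse (0.76), with the median gene at 1.83. Cd5 was nearest to Clec11a (0.42), Fam57a (0.44) and Il15ra (0.56), with the median gene at 1.29.

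S1pr3 was nearest to Cyp39a1 (0.58), Matk (0.67) and Stim1 (0.68), and Bhlhe41 to Ccdc69 (0.36), Cldn10 (0.42) and Ttc8 (0.43). The members that varied less had nearer neighbours. A gene with no variation at all would lie at 0.37 from Plac8, 0.47 from Dtx1, 0.42 from Cd9, 0.40 from Cd1d1 and 0.58 from Cd36. Plac8 was nearest to Psmb8 (0.22), Rplp0 (0.23) and Fis1 (0.23), and Dtx1 to Sec61a1 (0.22), Mgat2 (0.27) and Gcfc2 (0.27). Cd9 was nearest to Fancl (0.26), Klc1 (0.28) and Cdk4 (0.28), and Cd1d1 to Clptm1l (0.28), P4hb (0.29) and Nop58 (0.29). Cd36 had Fancl (0.37), Ppil2 (0.39) and mt-Nd4l (0.39) nearest, so Fancl was the nearest gene of both Cd36 and Cd9. These likenesses share library, depth and genotype.

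None of the closest relatives of the members was called in a comparison that tested it. Cd1d2, nearly identical to Cd1d1, had 20 counts in KOTP, 22 in KOTN, 14 in HetTP and 10 in HetTN and was not tested. Reads that map to both genes could have been split between them, so Cd1d1 is uncertain to that extent. Bhlhe40, the paralog of Bhlhe41, averaged 58.3 ± 12.7 CPM in KOTN and 14.1 ± 13.2 CPM in HetTN (log2 fold change 2.05, SE 0.66, adjusted p = 0.0561) and differed by 0.01 on the log2 scale between KOTP and KOTN (adjusted p = 0.99). S1pr1, the main receptor for sphingosine 1-phosphate on lymphocytes, averaged 245 ± 8 CPM in KOTP and 280 ± 18.3 CPM in KOTN (log2 fold change -0.18, SE 0.07, adjusted p = 0.278). Dtx2 and Dtx3 were not called in any comparison, nor was Dtx4 where it was tested.

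On GRCm38 the members lie on 7 chromosomes, with Cd36, Dtx1 and Plac8 on chromosome 5 and Cd9 and Bhlhe41 on chromosome 6. Spn and S1pr3 each have their coding sequence in a single segment, and that of Cd36 lies in 12. No member's coding sequence overlaps that of another annotated gene. Asb2, Cd9, S1pr3 and Bhlhe41 overlap predicted genes on the opposite strand outside the coding sequence, and whether counting used strand was not given in the sources used here.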

How the data were processed

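RNA was measured by Smart-seq2 in 16 libraries of about 1000 sorted cells, 4 per group, with 17 cDNA and 12 library PCR cycles per the labels' protocols. Per the submitters' processing notes, Trim Galore, STAR 2.2.0 (build mm10) and featureCounts were used. The authors deposited raw counts over coding sequence in 1 table per genotype, per the file headers. Their RPM columns, a normalized signal the authors made with 1 divisor per library, served only to recover that divisor. No per-sample column was left out.

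The tables' 22680 entries were joined on symbol, without the 4 entries of 2 duplicated names and 1 unpaired name per table, which gave 22675 genes. Symbols matched GENCODE M21 for 88.8% of them. Counts were scaled with TMM, filtered with filterByExpr and fitted by edgeR's robust quasi-likelihood test (edgeR 4.0.16, limma 3.58.1, R 4.3.3). Genotype comparisons and the difference of the tdTomato effects used all 16 libraries, and each tdTomato comparison used the 8 libraries of its table, because the spread differed between tables. Genes with a Benjamini-Hochberg adjusted p under 0.05, adjusted across every gene in the fit, were called. The script was tested on simulated data. Where a group had no count, the fold uses a floor of 3 counts over the group, and intervals are exact 95% Poisson intervals. Reads carried no molecular identifiers, so floors and intervals cover counting error only. Whether libraries stem from separate animals is not in the labels, and p-values then reflect only how much these libraries vary, which may be technical.

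The alternatives changed the scaling (RLE, upper quartile), the filter (none, or 5 CPM in 4 or more libraries), the tool (limma voom with sample weights, DESeq2 1.42.0), the libraries fitted (8 or 16, or 1 left out) and the design (replicate block). The same alternatives for the other gene lists were added after the data were seen. The members and lists were chosen with earlier results of these data known. Named genes were all members, Zfp318, named paralogs, up to 3 called genes per other list with the smallest p in each genotype comparison, and the 3 nearest genes per member. Genes named otherwise were chosen after their values were seen. The values of 1 follicular B cell gene that the rule names are not reported here.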

Additional observations from a re-analysis of the deposited data

Results flagged for a closer look

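In 6 of the 39 groups of 4 libraries with a value above 0 among the 10 genes, the highest library stood apart from the other 3 by Dixon's criterion, which chance meets in about 1 in 20 groups. Cd9 was high in KOTN replicate 3 (62.1 CPM) and in HetTP replicate 4 (64.4 CPM). Cd5 was high in KOTP replicate 4 (5.1 CPM) and in KOTN replicate 4 (6.4 CPM). Dtx1 was high in HetTP replicate 1 (232.7 CPM). Spn in HetTN replicate 1 (0.1 CPM) is a single count beside 3 libraries without any.

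Spn moved in opposite directions with tdTomato: every KOTP library was below every KOTN library, and every HetTP library was above every HetTN library. The heterozygous separation was near the floor, since HetTP replicates 2 and 3 held 4 and 8 counts, against 1 count in HetTN replicate 1. The fitted difference between the genotypes was -7.62 on the log2 scale (adjusted p = 0.071, edgeR), so it did not pass the test.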

How the results depend on the processing

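The alternatives gave 834 values for 48 results on single members, of which 767 kept direction and side of the threshold, 16 lost and 19 gained a call, and 32 changed sign, none of these on a called value. The choice of libraries mattered most: with all 16 libraries, 0 members and 2 genes were called in KOTP against KOTN, and 2 members and 114 genes in HetTP against HetTN, whereas the 8 libraries compared gave 1 member in KOTP against HetTP and 724 genes in KOTN against HetTN. In KOTP against KOTN, DESeq2 called 357 and voom 358 genes. DESeq2 and voom called 2 members each in KOTP against HetTP, where both also called more genes in all than edgeR did. In HetTP against HetTN, no filter gave 1 and DESeq2 38 genes. For the difference of the tdTomato effects, DESeq2 called 194 genes and 2 members and voom 7 genes. Same-numbered replicates did not deviate together (correlations -0.008 to 0.079 across genes). Such correlations cannot show whether same-numbered samples shared an animal, which the labels do not give. The replicate block called 1 gene for the difference of the tdTomato effects. It took the call from Asb2 in KOTN against HetTN (edgeR, adjusted p = 0.0705). Leaving out 1 library gave 608 to 1280 genes and 3 to 5 members in KOTN against HetTN, 722 to 1120 genes and 0 to 0 members in KOTP against HetTP, 128 to 396 genes and 4 to 6 members in KOTP against KOTN, 0 to 0 genes and members in HetTP against HetTN, and 1 to 41 genes and 0 to 2 members for the difference. Sign changes: KOTP against HetTP, Cd36 0.02 (upper quartile) and Cd5 0.31 (voom), with S1pr3 -0.03 to 0.90 and Cd36 -0.21 to 0.13 over libraries left out. KOTN against HetTN, Cd1d1 -0.01 (RLE and DESeq2) and Cd36 0.01 (upper quartile), 0.13 (voom) and 0.01 (replicate block), with Cd36 -0.34 to 0.27, Dtx1 -0.15 to 0.33 and Cd1d1 -0.17 to 0.18. HetTP against HetTN, Asb2 -0.33 to 0.56, S1pr3 -0.14 to 1.77 and Cd1d1 -0.16 to 0.20. Difference of the effects, Cd36 0.00 (upper quartile) and Bhlhe41 -0.05 (voom), with Cd36 -0.35 to 0.27, Cd9 -0.27 to 0.13 and Bhlhe41 -0.51 to 0.52. The cause of these changes was not tested. Upper quartile scaling moved the share of calls that were higher to 59.6% (KOTP against HetTP) and 63.5% (KOTN against HetTN), against 49.2% and 53.5%.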
